A study of Homo sapiens with 12 samples.

Results

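A set of 10 genes of haem breakdown and cellular iron handling was followed in 12 bulk RNA-seq libraries from human cell lines given low-density lipoprotein (LDL): HMOX1, HMOX2 and BLVRB of haem breakdown, the ferritin chains FTH1 and FTL, the transporters TFRC, SLC11A1, SLC11A2 and SLC40A1, and the ferritin adaptor NCOA4. The 10 were named as a pathway, with earlier results of these data known, and all 10 were found among the 20117 genes of the table. The 4 groups of 3 libraries were THP-1 with LDL, THP-1 in control medium, EA.hy926 with LDL and EA.hy926 in control medium. THP-1 is a monocytic leukaemia line that PMA, a phorbol ester, had turned into macrophages in both of its groups. EA.hy926 is a fusion of umbilical vein endothelial cells with the lung carcinoma line A549. LDL was native LDL from donors with CVD, used at 100 µg/mL for 24 h without serum, and the control dishes were without serum as well. THP-1 was kept in RPMI-1640 and EA.hy926 in DMEM, so a difference between the lines and a difference between the media cannot be told apart.

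As background, haem oxygenase opens the haem ring and releases iron, carbon monoxide and biliverdin, which biliverdin reductase turns into bilirubin. The freed iron is stored in ferritin, a shell of heavy chains (FTH1), which oxidise iron, and light chains (FTL), or leaves the cell through ferroportin (SLC40A1). Transferrin-bound iron enters through the transferrin receptor (TFRC) and reaches the cytosol through SLC11A2 (DMT1), SLC11A1 (NRAMP1) moves metal out of the phagosome of macrophages, and NCOA4 carries ferritin to lysosomes for breakdown. Macrophages are the body's main recyclers of haem iron from red cells. Iron regulatory proteins bind a stem-loop, the iron-responsive element, in several of these mRNAs when iron is low, which blocks translation from a 5′ UTR and protects the mRNA from decay in a 3′ UTR. NRF2 (NFE2L2) activates and BACH1 represses HMOX1 and both ferritin genes.

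The stem-loops are shown because they mark members on which the iron regulatory proteins can act, through translation or through mRNA decay. RNA-seq reads mRNA level and not translation. A search of GENCODE 29 transcripts for a bulged C, a stem of 5 base pairs (G with U allowed) and the loop CAGTGN found a match in 4 of the 10 members, and in 289 of 19702 protein-coding genes (1.47%). Members were searched in the principal transcript only and all genes in any protein-coding transcript, so these counts are not made alike. SLC11A2, which makes transcripts with and without an element, had no match in its principal transcript. The loop is in capitals and each is written 5′ to 3′ as DNA on the mRNA strand. TFRC held 4 matches in exon 19, its 3′ UTR; SLC40A1 and FTL held 1 each in exon 1, in the 5′ UTR; FTH1 also held 1.
SLC40A1, chr2:189580663-189580686 (GRCh38, minus strand): cttcagctaCAGTGTtagctaagt
FTL, chr19:48965338-48965361 (GRCh38, plus strand): ttgcttcaaCAGTGTttggacgga
TFRC, chr3:196050981-196051004 (GRCh38, minus strand): tatcggaagCAGTGCcttccataa
TFRC, chr3:196050577-196050600 (GRCh38, minus strand): tatcgggagCAGTGTcttccataa
TFRC, chr3:196050512-196050535 (GRCh38, minus strand): tatcggagaCAGTGAtctccatat
TFRC, chr3:196050465-196050488 (GRCh38, minus strand): tatcgggaaCAGTGTttcccataa
The 4 TFRC matches end their loops with C, T, A and T and share the flanking letters tatcgg. A match is a description of the letters and not a measured binding site.

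The libraries held 4.32 to 11.0 M reads, and 1 read was worth 0.653 to 1.91 normalised counts. Of 10 macrophage markers, 9 averaged at least 10 normalised counts in THP-1 with and without LDL, CD68 was listed at 0 there, and CSF1R, CD14 and CYBB were listed at 0 in EA.hy926. Of 9 endothelial markers, 8 reached that level in EA.hy926 with LDL and 9 in EA.hy926 control, against 5 in each THP-1 group. In THP-1 with LDL PECAM1 averaged 1367 and ENG 1874 normalised counts, against 1084 and 2049.7 in THP-1 control, while CDH5, KDR, TEK and ERG were listed at 0 there. The signal recognition particle RNA RN7SL1 took 9.52% to 14.4% of reads in EA.hy926 with LDL and 8.90% to 12.7% in EA.hy926 control. In THP-1 with LDL 35.5% of the 16167 genes tested were higher and 29.0% lower than in THP-1 control, so a call in that line is the common result. In EA.hy926 with LDL 0.873% of 14202 genes were higher and 1.13% lower. Read against this, 3 of 10 members were higher and 4 lower in THP-1, a share near that of all genes, while in EA.hy926 3 of 9 members tested were higher and 0 lower. The EA.hy926 count of members higher ran from 2 to 5 over 17 alternatives. As the members were chosen with earlier results of these data known, it is no test of an excess. In both tests a call is an adjusted p below 0.05 from limma on log2(normalised count + 1), and log2 fold changes below are on that scale. The LDL and control ranges did not overlap for 11137 of 16167 genes in THP-1 and for 2329 of 14202 in EA.hy926. A gap between the groups is thus the common result in THP-1. The labels name the libraries of a group only as biological replicates, so a p-value is set against the spread between libraries, which may be technical in part.

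**Figure D1:**
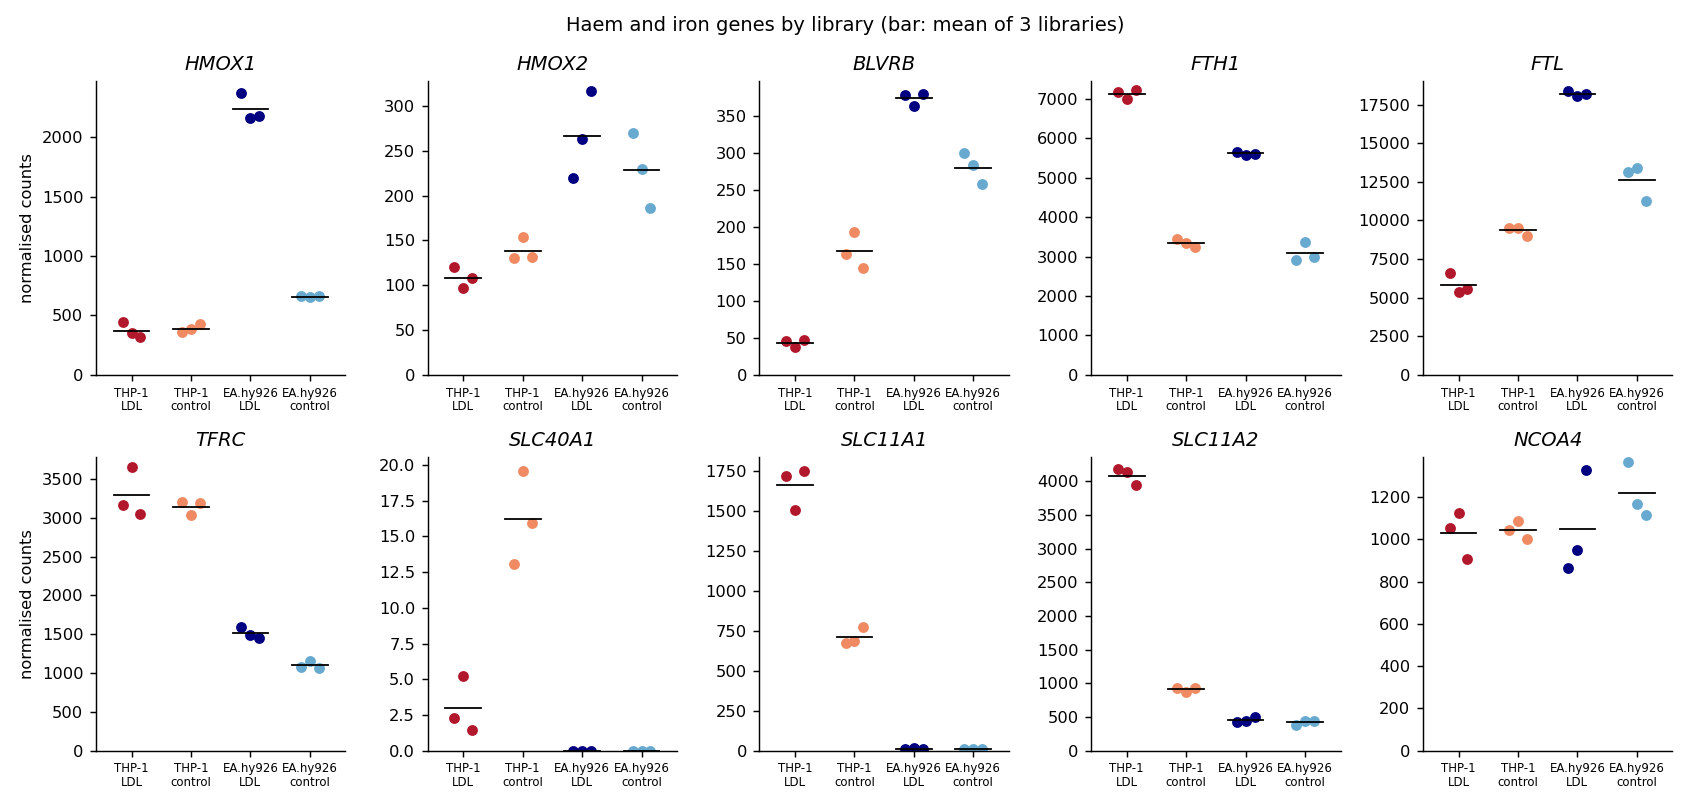
Normalised counts of the 10 genes in each of the 12 libraries, 1 panel per gene with its own axis from 0; points are libraries and bars are means of 3. FTH1 was higher with LDL in both lines, HMOX1 stood at 2370.3, 2166 and 2178 in EA.hy926 with LDL against 661, 656 and 662 in EA.hy926 control, and SLC11A2 at 4174, 4131 and 3937 in THP-1 with LDL against 923, 872 and 935 in THP-1 control.

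HMOX1, the inducible haem oxygenase (ENSG00000100292.18, chr22:35380361-35394214, plus strand), was 3.39 times as high in EA.hy926 with LDL as in EA.hy926 control and did not pass the test in THP-1. It had 2370.3, 2166 and 2178 normalised counts in the EA.hy926 LDL libraries, against 661, 656 and 662 in EA.hy926 control. The groups were far apart and each was tight, with means of 2238 ± 115 and 659.7 ± 3.33 (SD, n = 3 each). The log2 fold change 1.76 (SE 0.093, limma adjusted p = 1.3e-06) had the smallest p of all 14202 genes in EA.hy926, and its size was the 55th largest among genes called higher. In THP-1 with LDL it had 443, 356 and 318, against 359, 384 and 427 in THP-1 control, and these ranges overlapped. The THP-1 log2 fold change was -0.08, with a 95% interval of -0.33 to 0.18 (limma adjusted p = 0.58), and scaling to library totals, which moved the median of all THP-1 genes to -0.26, put it at -0.42 (0.0053). Across the 4 groups HMOX1 was highest in EA.hy926 with LDL and then EA.hy926 control, with no overlap between any of these and THP-1, while THP-1 control and THP-1 with LDL did not differ beyond their spread. Per kilobase of the principal transcript the means were 204 in THP-1 with LDL, 214 in THP-1 control, 1228 in EA.hy926 with LDL and 362 in EA.hy926 control.

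HMOX2, the constitutive haem oxygenase (ENSG00000103415.12, chr16:4474690-4510347, plus strand), was slightly lower in THP-1 with LDL. It had 120.2, 97.2 and 108 normalised counts there, against 131, 154 and 132 in THP-1 control, which did not overlap (log2 fold change -0.35, SE 0.13, limma adjusted p = 0.033). This call was lost without LDL replicate 2 (0.08) or 3 (0.059) and without control replicate 1 (0.054), 2 (0.16) or 3 (0.056). Of its exonic bases 228 are shared with NMRAL1 on the opposite strand, whose own log2 fold change was -0.34 (limma adjusted p = 0.052). Without a stated strand setting, reads of the overlap cannot be told apart. In EA.hy926 HMOX2 had 219.8, 264 and 317 with LDL, against 269, 229 and 187 in control, and these ranges overlapped (0.22, 95% interval -0.15 to 0.60, limma adjusted p = 0.68). The per-kilobase ratio of HMOX1 to HMOX2 was 10.2 ± 2.34 in EA.hy926 with LDL and 3.48 ± 0.650 in EA.hy926 control, and 4.04 ± 0.494 in THP-1 with LDL and 3.34 ± 0.445 in THP-1 control (SD, n = 3 each).

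BLVRB, a biliverdin and flavin reductase (ENSG00000090013.11, chr19:40447765-40465840, minus strand), fell in THP-1 with LDL to 0.267 times its control level. It had 46.2, 38.1 and 46.7 normalised counts in THP-1 with LDL, against 163, 193 and 145 in THP-1 control, with no overlap. Its fold in THP-1 was 0.267 (log2 fold change -1.91, SE 0.16, limma adjusted p = 3.1e-07). In EA.hy926 it had 377, 363 and 379.6 with LDL, against 299, 283 and 257 in control. These groups did not overlap either, with the LDL libraries on top, but the difference did not pass over all genes (log2 0.42, 95% interval 0.16 to 0.68, limma adjusted p = 0.14). The related reductase BLVRA had 108, 118 and 83.1 in THP-1 with LDL against 81.0, 72.5 and 68.6 in THP-1 control (log2 fold change 0.46, SE 0.16, limma adjusted p = 0.026). The BLVRA call was lost under 4 other scalings (0.054 to 0.53), in DESeq2 (0.10), and without LDL replicate 1 (0.064) or 2 (0.082) or control replicate 2 (0.077) or 3 (0.091).

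FTH1, the ferritin heavy chain (ENSG00000167996.16, chr11:61959718-61967660, minus strand), rose in both lines. It had 7179.8, 7002 and 7242 normalised counts in THP-1 with LDL, against 3444, 3348 and 3239 in THP-1 control. In EA.hy926 it had 5664, 5579 and 5619 with LDL, against 2921, 3367 and 2989 in control. Neither pair of groups overlapped, and the THP-1 fold was 2.14 (log2 fold change 1.09, SE 0.057, limma adjusted p = 3e-09) and the EA.hy926 fold 1.82 (log2 fold change 0.86, SE 0.10, limma adjusted p = 0.00016). In the 2 control groups its ranges overlapped. FTH1 shares 1267 of its 2030 exonic bases with BEST1, a chloride channel gene on the opposite strand, and BEST1 rose as well. BEST1 had 1235, 3073 and 2315 in THP-1 with LDL against 545, 448 and 491 in THP-1 control (log2 fold change 2.06, SE 0.23, limma adjusted p = 5.6e-06). In EA.hy926 BEST1 had 805, 827 and 866 with LDL against 409, 427 and 371 in control (1.05, SE 0.11, limma adjusted p = 0.00015). In THP-1 with LDL the BEST1 values spread more widely than the FTH1 values. The share of FTH1 reads that came from BEST1 RNA, or of BEST1 reads from FTH1 RNA, was not tested.

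FTL, the ferritin light chain (ENSG00000087086.15, chr19:48965301-48966878, plus strand), fell in THP-1 with LDL. It had 6571, 5368 and 5542 normalised counts there, against 9513, 9530.3 and 9024 in THP-1 control, and the groups did not overlap. Its fold was 0.621 (log2 fold change -0.69, SE 0.077, limma adjusted p = 5e-06), so the ferritin chains moved in opposite directions in this line. In EA.hy926 FTL had 18375, 18049 and 18179 with LDL, against 13118, 13413 and 11283 in control. These did not overlap, with the LDL libraries higher, and the fold of 1.45 missed the threshold (log2 0.53, 95% interval 0.25 to 0.82, limma adjusted p = 0.068). It passed with a pseudocount of 5 (0.048), with no filter on low values (0.044), in edgeR (adjusted p = 0.023) and in DESeq2 (0.0015). Reads of FTLP3, the 1 FTL pseudogene in the table, came to 0.465% to 0.868% of FTL reads, and those of 8 FTH1 pseudogenes to 0.632% to 1.71% of FTH1 reads.

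The balance of the chains matters for ferritin because the heavy chain carries the ferroxidase site and the light chain promotes mineral formation inside the shell. Per kilobase, FTL stood at 1.28, 1.07 and 1.07 times FTH1 in THP-1 with LDL, against 3.87, 3.99 and 3.90 times in THP-1 control. In EA.hy926 the ratio was 4.54, 4.53 and 4.53 with LDL, against 6.29, 5.58 and 5.28 in control. The ratio was lower with LDL in both lines with no overlap, with a log2 difference of -1.78 in THP-1 and, in EA.hy926, of -0.33. The exact permutation test, two-sided, gave p = 0.1 in each line, the smallest that 3 against 3 libraries allow. Adding pseudogene reads to both parents left these at -1.78 and -0.33, and counting all BEST1 reads as FTH1 gave -1.97 and -0.35. Reads left uncounted where FTH1 and BEST1 overlap, if any, are not covered by these ratios, as the strand setting was not given. Nor are reads left uncounted, if any, because they matched both a ferritin gene and a pseudogene.

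**Figure D2:**
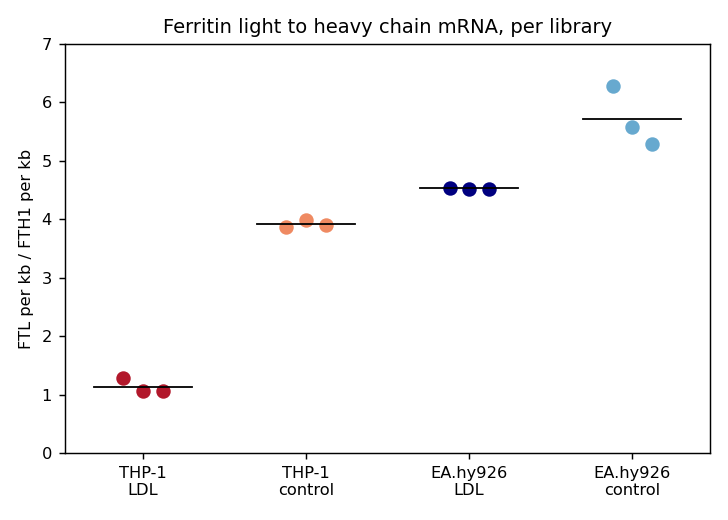
Ratio of FTL to FTH1 mRNA, each per kilobase of its principal transcript, in each library; points are libraries and bars are means of 3. The ratio averaged 1.14 in THP-1 with LDL against 3.92 in THP-1 control, and 4.53 in EA.hy926 with LDL against 5.72 in EA.hy926 control.

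TFRC, the transferrin receptor (ENSG00000072274.14, chr3:196027183-196082189, minus strand), was higher in EA.hy926 with LDL. It had 1596, 1495 and 1454 normalised counts there, against 1081, 1160.4 and 1064 in EA.hy926 control, and the groups did not overlap. The fold was 1.37 (log2 fold change 0.46, SE 0.095, limma adjusted p = 0.022), and the call was lost with scaling to library totals (adjusted p = 0.097) and without LDL replicate 1 (0.083) or 2 (0.15) or control replicate 1 (0.08), 2 (0.055) or 3 (0.11). THP-1 had 3164, 3657 and 3050.3 with LDL against 3199, 3029.96 and 3187 in control, and these ranges overlapped. The THP-1 log2 fold change was 0.06 (95% interval -0.09 to 0.22, limma adjusted p = 0.45), and its sign turned under 4 other scalings and in edgeR and DESeq2, with adjusted p of 0.00037 with quantile scaling and 0.0035 with scaling to library totals, so no direction is given. Both THP-1 groups stood above both EA.hy926 groups.

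SLC11A2, which carries ferrous iron across the plasma membrane and out of endosomes (ENSG00000110911.17, chr12:50979401-51028566, minus strand), rose most of the 10 members in THP-1. It had 4174, 4131 and 3937 normalised counts in THP-1 with LDL, against 923, 872 and 935 in THP-1 control. The groups were separated by a fold of 4.48 (log2 fold change 2.16, SE 0.06, limma adjusted p = 6.9e-12), and 968 of the 5743 genes called higher rose by more. EA.hy926 had 432, 443 and 496 with LDL against 387, 432 and 445 in control, with overlap (0.12, 95% interval -0.13 to 0.37, limma adjusted p = 0.75). SLC11A2 makes transcripts with and without an iron-responsive element, and a count per gene cannot tell them apart.

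SLC11A1, the phagosomal metal transporter of macrophages (ENSG00000018280.17, chr2:218382029-218396894, plus strand), rose in THP-1 with LDL. It had 1723, 1507 and 1754 normalised counts in THP-1 with LDL, against 672, 687 and 773 in THP-1 control, with no overlap and a fold of 2.33 (log2 fold change 1.22, SE 0.079, limma adjusted p = 2.6e-08). In EA.hy926 it was close to the limit of measurement, with 10.6, 17.2 and 11.2 normalised counts with LDL, against 9.18, 9.87 and 10.4 in control. Both EA.hy926 groups held 27 reads in all, and the gene passed the filter on low values there only through the LDL group (log2 0.34, 95% interval -0.39 to 1.08, limma adjusted p = 0.75). The per-kilobase ratio of SLC11A2 to SLC11A1 was 2.28 ± 0.233 in THP-1 with LDL and 1.19 ± 0.0769 in THP-1 control (SD, n = 3 each).

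SLC40A1, ferroportin, the one known iron exporter of mammalian cells (ENSG00000138449.11, chr2:189560579-189583758, minus strand), was low in THP-1 and lower still with LDL. It had 2.31, 5.26 and 1.46 normalised counts in THP-1 with LDL, against 13.1, 19.6 and 16.0 in THP-1 control. These are 2, 4 and 1 reads with LDL against 15, 30 and 17 in control, the groups did not overlap, and the gene passed the filter only through the control group. The log2 fold change -2.20 (SE 0.43, limma adjusted p = 0.00058) depended on the pseudocount, at -2.38 with 0.5 and -1.42 with 5, so no fold is given. In EA.hy926 it was listed at 0 in all 6 libraries and was not tested. Whether fewer cells that express a gene or less RNA per cell lies behind a lower bulk level cannot be told apart, here or for the other members.

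NCOA4, the ferritin adaptor of lysosomal breakdown (ENSG00000266412.6, chr10:46005088-46030714, minus strand), did not pass in either line as deposited. It had 1053, 1127 and 905 normalised counts in THP-1 with LDL, against 1044, 1086 and 1004 in THP-1 control (log2 -0.03, 95% interval -0.21 to 0.15, limma adjusted p = 0.78). Quantile scaling put it at -0.24 (0.019) and scaling to library totals at -0.37 (0.0013). EA.hy926 had 866, 951 and 1329 with LDL against 1367, 1170.3 and 1117 in control (-0.24, -0.56 to 0.09, limma adjusted p = 0.6). All 4 groups overlapped with their neighbours in level. In EA.hy926 the highest NCOA4 and HMOX2 values of each group came from LDL replicate 3 and control replicate 1, the libraries with the highest RN7SL1 share of their groups, 14.4% and 12.7%. With that share as a covariate, a setting chosen after the data were seen, NCOA4 stood at -0.31 (adjusted p = 0.067) and HMOX2 at 0.16 (0.57).

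**Figure D3:**
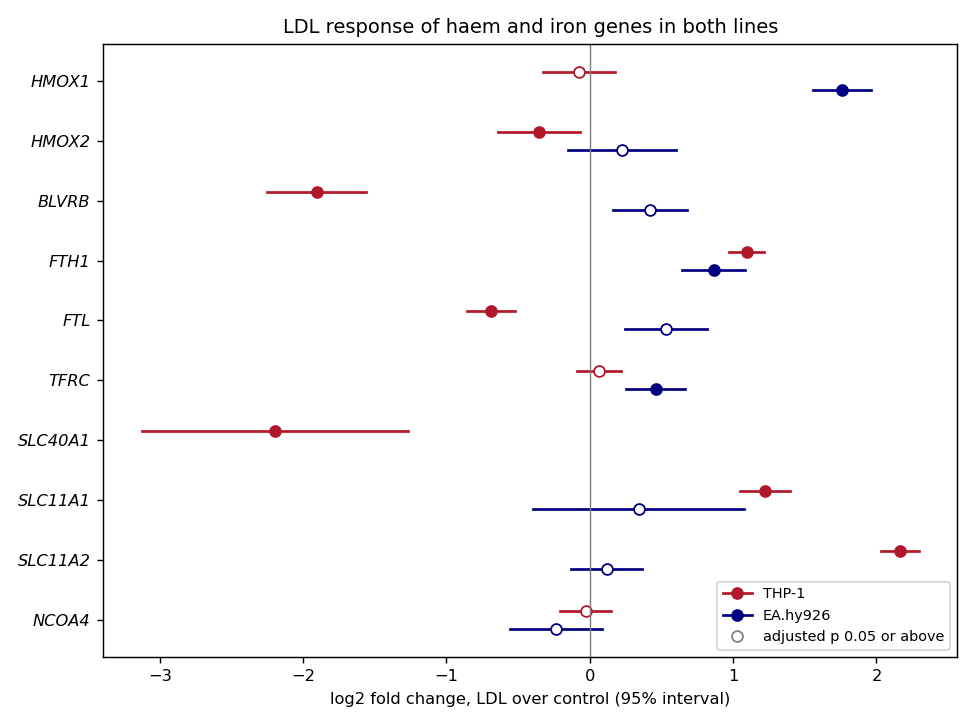
Log2 fold change, LDL over control, with its 95% interval for each gene in THP-1 (red) and EA.hy926 (dark blue); filled points had an adjusted p below 0.05, and SLC40A1 was listed at 0 in EA.hy926. FTH1 was called higher in both lines, by 1.09 in THP-1 and by 0.86 in EA.hy926, while BLVRB and FTL lay below 0 in THP-1 and above 0 in EA.hy926.

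The LDL response was then compared between the lines as an interaction, THP-1 minus EA.hy926, over the 12534 genes measured in both, of which 47.1% passed. Of 9 members tested, 7 passed. The response was higher in THP-1 for SLC11A2, by 2.05 (SE 0.12, limma adjusted p = 2.6e-10), and for SLC11A1, by 0.88 (SE 0.24, limma adjusted p = 0.0062). The SLC11A1 call rested on few EA.hy926 reads and was lost in edgeR (0.067) and DESeq2 (0.096) and with scaling to library totals (0.052). It was lower in THP-1 for BLVRB at -2.32 (SE 0.20, adjusted p = 2.7e-08), HMOX1 at -1.84 (SE 0.15, 2.4e-08) and FTL at -1.22 (SE 0.14, 1.3e-06). HMOX2 at -0.58 (limma adjusted p = 0.048) and TFRC at -0.39 (0.011) also passed, the HMOX2 call being lost without any single library (0.059 to 0.13) other than THP-1 LDL replicate 1, EA.hy926 LDL replicate 1 and EA.hy926 control replicate 1. FTH1 did not pass, with a difference of 0.23 (95% interval -0.01 to 0.47, limma adjusted p = 0.1), and nor did NCOA4 at 0.21 (0.38), which passed without EA.hy926 LDL replicate 3 at 0.39 (0.035). The heavy chain was thus the one member called in the same direction in both lines.

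**Figure D4:**
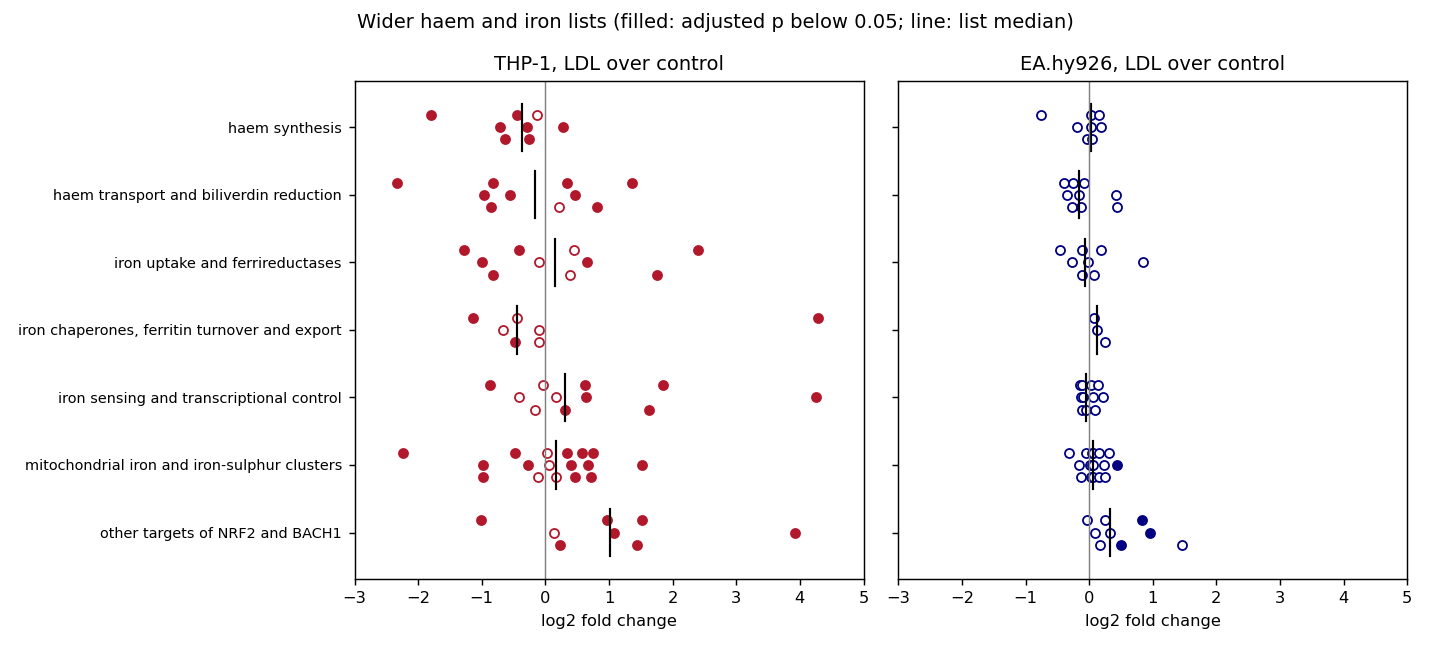
Log2 fold changes, LDL over control, of the genes of 7 wider haem and iron lists, each point a gene tested in that line (THP-1 left, EA.hy926 right); filled points had an adjusted p below 0.05 and vertical bars are medians of the points shown. PCBP3 in EA.hy926 is not drawn, since its control group was listed at 0; NRF2 and BACH1 targets had a median of 1.02 in THP-1 and 0.33 in EA.hy926.

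The rest of the pathway was read in 7 lists of 81 genes, 74 of them in the table. In THP-1 with LDL 29 of the 71 tested were higher (40.8%) and 24 lower (33.8%), near the 35.5% and 29.0% of all genes. Those called higher included HEPH, STEAP1 and BMP6, which passed the filter on low values only through the LDL group. In EA.hy926 5 of 66 were higher (7.6%) and 0 lower, beside 0.873% and 1.13% of all genes, and 1 of the 5, PCBP3, was tested against a group listed at 0. That count of 5 depended on the processing and ran from 2 to 8 over the 17 alternatives. The lists were chosen with earlier results of these data known, so the counts are no test of an excess. As called genes were the majority in THP-1, the counts of single lists below are descriptions and are to be read against those shares. For comparison, the median over all genes tested was 0.08 in THP-1 and 0.00 in EA.hy926.

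In haem synthesis 6 of 8 genes were lower in THP-1 with LDL and 1 higher (median -0.37), beside 29.0% lower and 35.5% higher among all genes. ALAD, which joins aminolaevulinic acid into porphobilinogen, averaged 75.3 ± 4.20 normalised counts with LDL and 264 ± 3.13 in THP-1 control (log2 fold change -1.80, SE 0.11, limma adjusted p = 1.5e-08). UROS, uroporphyrinogen synthase, was at -0.72 (limma adjusted p = 3.2e-05). ALAS1, the rate-limiting enzyme outside red cells, was the 1 higher gene, at 1799 ± 36.8 with LDL and 1483 ± 46.1 in THP-1 control (0.28, limma adjusted p = 0.0011), and turned to -0.06 with scaling to library totals and lost its call with quantile scaling (0.95). In EA.hy926 0 of 8 passed (median 0.03).

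Of 10 genes of haem transport and biliverdin reduction tested in THP-1, 4 were higher and 5 lower (median -0.17). CD163, the receptor for haemoglobin bound to haptoglobin, was higher at 1.36 (limma adjusted p = 2.6e-09). SLC46A1, a folate transporter that also carries haem, averaged 44.5 ± 12.0 with LDL and 224 ± 12.9 in THP-1 control (log2 fold change -2.34, SE 0.18, limma adjusted p = 1.4e-07). LRP1, the receptor for haemopexin-bound haem, was lower at -0.82 (1e-06), and SLC48A1, which moves haem out of lysosomes, was lower too, at 56.8 ± 3.91 with LDL and 111 ± 5.49 in control (-0.96, 7.1e-05). In EA.hy926 0 of 9 passed (median -0.16), with SLC48A1 at 0.42 (limma adjusted p = 0.18; 0.032 without LDL replicate 3) and BLVRA at -0.27 (0.76), and CD163 was listed at 0.

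Among 10 genes of iron uptake and ferric reduction in THP-1, 3 were higher and 4 lower (median 0.14). SLC39A14, which imports iron not bound to transferrin, rose beside SLC11A2. It had 8160.2, 8561 and 7028 normalised counts with LDL, against 1429, 1498 and 1571 in THP-1 control (log2 fold change 2.40, SE 0.076, limma adjusted p = 2.6e-11). Of STEAP1, STEAP3, STEAP4 and CYBRD1, those lower were STEAP3 of the endosome at -0.99 (limma adjusted p = 5.5e-06) and CYBRD1 of the plasma membrane at -1.28 (1.6e-05). STEAP1 was higher, with 9.25, 14.5 and 16.0 normalised counts with LDL, against 0.871, 4.57 and 5.64 in THP-1 control (log2 fold change 1.76, SE 0.50, limma adjusted p = 0.0077), and passed the filter only through the LDL group, while STEAP4 did not pass at 0.38 (0.33). EA.hy926 had 0 of 8 past the threshold (median -0.06), and the SLC39A14 response was higher in THP-1 by 2.20 (interaction, limma adjusted p = 5.1e-10).

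Of 7 genes of iron chaperones and export in THP-1, 1 was higher and 2 lower (median -0.45). HEPH, hephaestin, a copper ferroxidase that works with ferroportin, had 31.2, 25.0 and 30.6 normalised counts with LDL, against 0.871, 0 and 0.94 in THP-1 control, which are 67 reads against 2 in all (limma adjusted p = 1.3e-06). It passed the filter only through the LDL group. The poly(rC)-binding proteins PCBP1, which delivers iron to ferritin, and PCBP4 were lower, at -0.48 (5.2e-05) and -1.13 (5.1e-06). In EA.hy926 1 of 4 passed, PCBP3, with 13.2, 15.3 and 3.36 normalised counts with LDL and listed at 0 in control (limma adjusted p = 0.0025). These were 21 reads against 0, and the gene passed the filter only through the LDL group.

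Iron sensing and transcriptional control had 6 of 11 genes higher and 1 lower in THP-1 (median 0.30), beside 35.5% and 29.0% of all genes. NFE2L2, which encodes NRF2, had 2415, 2402 and 2375 normalised counts with LDL, against 758, 774 and 793 in THP-1 control (log2 fold change 1.63, SE 0.058, limma adjusted p = 8.3e-11). HIF1A, the oxygen-sensing transcription factor, was at 1.85 (limma adjusted p = 8.7e-11). BMP6, a signal for hepcidin production in liver, averaged 131 ± 10.2 with LDL and 6.04 ± 1.49 in THP-1 control (log2 fold change 4.25, SE 0.24, limma adjusted p = 6.4e-09), and it passed the filter only through the LDL group. BACH1 was also higher, at 1563 ± 108 with LDL and 1018 ± 68.0 in control (0.62, limma adjusted p = 9.6e-06). HMOX1 itself did not pass in THP-1. These are mRNA levels and not the activity of NRF2 or BACH1, and a link to HMOX1 was not tested in either line. In EA.hy926, where HMOX1 rose, 0 of 11 passed (median -0.05), with NFE2L2 at -0.09 (limma adjusted p = 0.84) and BACH1 at -0.12 (0.81). The responses differed between the lines for NFE2L2 by 1.72 (limma adjusted p = 4.4e-08) and for BACH1 by 0.74 (0.0036). The iron regulatory proteins that bind the stem-loops did not pass in either line as deposited: in THP-1 ACO1 was at -0.42 (limma adjusted p = 0.2) and IREB2 at 0.17 (0.051). IREB2 was called higher without THP-1 LDL replicate 1 (0.047) or 3 (0.033) and lower with scaling to library totals (0.039), so no direction is given. In EA.hy926 ACO1 was at 0.06 (0.87) and IREB2 at -0.14 (0.7). ACO1 in THP-1 rested on libraries that disagreed, with 178, 552 and 319 with LDL against 428, 414 and 427 in control, and without LDL replicate 2 it was lower at -0.82 (adjusted p = 0.00065), as it was with scaling to library totals at -0.76 (0.026).

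Mitochondrial iron and iron-sulphur cluster genes were higher in 8 of 17 and lower in 5 in THP-1 (median 0.17), near the 35.5% and 29.0% of all genes. SLC25A28, mitoferrin 2, which brings iron into mitochondria, averaged 683 ± 15.8 with LDL and 238 ± 15.2 in THP-1 control (log2 fold change 1.52, SE 0.08, limma adjusted p = 3.4e-09). ISCU, the scaffold on which clusters are built, was higher at 0.68 (1.5e-05), and FDXR, ferredoxin reductase, averaged 17.6 ± 4.32 with LDL and 85.2 ± 6.91 in control (-2.24, 1.9e-06). EA.hy926 had 1 of 17 higher (median 0.06), the glutaredoxin GLRX5 at 736 ± 28.2 with LDL and 544 ± 3.12 in control (0.43, limma adjusted p = 0.042). The EA.hy926 call of GLRX5 was lost under 4 other scalings (0.053 to 0.12), in edgeR (0.061) and without any 1 of the 6 EA.hy926 libraries (0.087 to 0.2). GLRX5 was also among the 8 called higher in THP-1 (0.58, limma adjusted p = 0.041), though LDL replicate 1 lay below every THP-1 control library.

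Other targets of NRF2 and BACH1 had the highest list median in both lines, 1.02 in THP-1 and 0.33 in EA.hy926. In THP-1 6 of 8 were higher and 1 lower, beside 35.5% and 29.0% of all genes. In EA.hy926 3 of 9 were higher, beside 0.873% of all genes. As the list was chosen with earlier results of these data known, neither count is a test of an excess. SLC7A11, the cystine importer, averaged 5044 ± 425 in THP-1 with LDL and 332 ± 10.5 in THP-1 control (log2 fold change 3.92, SE 0.071, limma adjusted p = 1.4e-13). TXNRD1, thioredoxin reductase, was at 1.44 (2.5e-10), and GCLM, of glutathione synthesis, rose in both lines. GCLM averaged 525 ± 35.2 in THP-1 with LDL and 183 ± 6.71 in THP-1 control (1.51, limma adjusted p = 8e-09), and 333 ± 20.8 in EA.hy926 with LDL and 187 ± 10.8 in EA.hy926 control (0.83, 0.002). NQO1, a quinone reductase, was called higher in EA.hy926, at 6399 ± 198 with LDL and 4548 ± 554 in control (0.50, limma adjusted p = 0.047), and lower in THP-1, at 203 ± 22.9 with LDL and 411 ± 17.1 in control (-1.02, 1.4e-06). The EA.hy926 call of NQO1 was lost under 4 other scalings (0.066 to 0.12), in edgeR (0.052) and without any EA.hy926 library (0.08 to 0.23) other than control replicate 1. The difference between the lines for NQO1 was -1.52 (limma adjusted p = 8.8e-08), the same sign as for HMOX1, BLVRB and FTL. Most called genes of this list went the other way. Of 8 compared, 1 response, that of NQO1, was called lower in THP-1 and 4 higher, beside 47.1% of all genes called. The 4 were SLC7A11 by 3.75 (limma adjusted p = 1.3e-13), TXNRD1 by 1.10 (2.8e-07), ME1 by 1.10 (5e-05) and GCLM by 0.68 (0.0011). OSGIN1, a growth inhibitor induced by oxidative stress, averaged 998 ± 132 in EA.hy926 with LDL and 513 ± 43.0 in control (log2 fold change 0.95, SE 0.12, limma adjusted p = 0.00032). OSGIN1 was higher in THP-1 too, at 57.3 ± 7.60 with LDL and 28.9 ± 2.63 in THP-1 control (log2 fold change 0.96, SE 0.20, limma adjusted p = 0.00093), and the difference between the lines was 0.01 (limma adjusted p = 0.98).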

How the data were processed

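Total RNA of 12 libraries was sequenced. STAR, HTSeq and DESeq2 on GRCh38, with FastQC and MultiQC, are named by the submitters' processing notes; versions, annotation, strand setting and filters were not given in the sources used here. Values deposited by the authors are a signal in normalised counts, gene counts divided by a size factor of each library. Of the values, 100.0% were whole reads times 1 factor per library (tolerance 0.001), so reads were recovered for the count tests. The test first planned for such values was kept: limma 3.58.1 (R 4.3.3) with an intensity trend, on log2(value + 1), per line, two-sided, for genes averaging at least 10 in a group, adjusted by Benjamini and Hochberg over all genes tested; an interaction over 12 libraries compared the lines. edgeR 4.0.16 and DESeq2 1.42.0, other scalings, pseudocounts, filters and left-out libraries were alternatives. No library was a copy of another, since counts of replicates differed beyond sampling noise (chi-square over degrees of freedom 1.85 to 18.5). Gene symbols came from a name list (20104 identifiers matched). Coordinates, transcript lengths and stem-loop sequences came from GENCODE 29 on GRCh38. A group without reads is called listed at 0, since an undescribed filter may have set it. The members and lists were chosen with earlier results of these data known. Of each list up to 3 called genes per line with the smallest adjusted p were named, and CD163, BLVRA, SLC48A1, BACH1, NFE2L2, ACO1 and IREB2 whatever their result; BEST1, NMRAL1, RN7SL1, STEAP1, STEAP4 and the THP-1 values of OSGIN1 were chosen after their values were seen. The fit was also run on simulated data with the same spread setting for all genes. The replicates here were less even, so that run checked the code only.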

Additional observations from a re-analysis of the deposited data

Results flagged for a closer look

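The LDL response differed between the lines for 7 members by the interaction test, THP-1 minus EA.hy926 on the log2 scale, beside 47.1% of all genes. It was higher in THP-1 for SLC11A2 (2.05) and SLC11A1 (0.88). For HMOX1 (-1.84), BLVRB (-2.32), FTL (-1.22), HMOX2 (-0.58) and TFRC (-0.39) it was lower in THP-1. The HMOX2 call was lost without any of 9 single libraries and the SLC11A1 call in edgeR, DESeq2 and library-total scaling. For BLVRB and FTL every LDL library lay below every control library in THP-1 and above every control library in EA.hy926. A gap in either direction was found for 11137 of 16167 genes in THP-1 and 2329 of 14202 in EA.hy926. Line, medium and maturation with PMA go together in this design and cannot be told apart.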

How the results depend on the processing

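In THP-1, FTH1, SLC11A1 and SLC11A2 stayed higher and BLVRB and FTL lower past the threshold under all 17 alternatives. SLC11A2 ran from 1.82 to 2.19, FTH1 from 0.55 to 1.12 and FTL from -1.33 to -0.63. SLC40A1 stayed called lower in THP-1 too. Every setting used the same 2, 4 and 1 reads with LDL against 15, 30 and 17 in control, or part of them, so this adds no support. HMOX1 in EA.hy926 and its difference between the lines kept sign and call as well. The median of all THP-1 genes moved from 0.08 as deposited to -0.26 with scaling to library totals, where 3734 genes were higher and 7331 lower and 7 members were lower, HMOX1 at -0.42 among them. TFRC in THP-1 turned to -0.037 with TMM, -0.0061 with median-of-ratios, -0.36 with quantile and -0.28 with library-total scaling, -0.031 in edgeR and -0.00034 in DESeq2. Without single libraries, THP-1 values ran from -0.014 to 0.12 for TFRC, -0.21 to 0.030 for HMOX1 and -0.10 to 0.062 for NCOA4, and EA.hy926 values from -0.28 to 0.0055 for BACH1 and -0.22 to 0.027 for NFE2L2. With library-total scaling ALAS1 turned to -0.063 and IREB2 to -0.18 in THP-1 (IREB2 -0.066 with quantile scaling), ACO1 to -0.015 in EA.hy926, and the differences of FTH1 to -0.039 (-0.23 with quantile scaling) and NCOA4 to -0.061. The 285 genes called in EA.hy926 became 466 with no filter and 644 with the RN7SL1 covariate, which called 5 members higher and put ACO1 in THP-1 at 0.39. Members with a higher response in THP-1 than EA.hy926 numbered 1 with library-total scaling, in edgeR and in DESeq2, SLC11A1 being lost. Replicate numbers did not pair the libraries (correlations -0.29 to 0.035), and with the replicate block TFRC (adjusted p = 0.19), GLRX5 (0.29) and NQO1 (0.28) in EA.hy926 and the difference of HMOX2 (0.11) were no longer called. The cause of these changes was not tested. Low reads limit SLC40A1 in THP-1, where it passed the filter only through the control group, and SLC11A1 in EA.hy926.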

Other observations

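In THP-1 with LDL 2 genes of the lists differed widely between libraries of that group, in the same order as BEST1, with replicate 2 on top. ACO1 had 178, 552 and 319 normalised counts with LDL, against 428, 414 and 427 in THP-1 control. GLRX5 had 171, 414 and 259.5 with LDL, against 181, 173 and 177 in control. Its call as higher in THP-1 (log2 fold change 0.58, limma adjusted p = 0.041) thus rested on LDL replicates 2 and 3. The highest ACO1 value was 3.10 times the lowest, a ratio that 62 of 9114 genes with a mean of at least 100 reached or passed (0.680%), and for GLRX5 it was 2.42 (83 genes, 0.911%). Both were chosen after their values were seen. HAMP, which encodes hepcidin, was at 13.9, 3.94 and 13.1 with LDL and 13.9, 12.4 and 12.2 in THP-1 control.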
